A study of Caenorhabditis elegans with 4 samples.

Results

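T-box transcription factors were followed in early embryos of the nematode Caenorhabditis elegans, for 10 genes of the family named by their sequence identifiers. A gene entered where a row of the arrays carried its identifier, with or without an isoform letter. Each of the 10 genes had 1 such row, so 10 of the 23180 transcripts measured and 10 of 19380 named genes are described. The RefSeq gene table holds 22 T-box genes, and the other 12 were also on the arrays.

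Total RNA was hybridised to 4 single-colour NimbleGen arrays, replicates 1 to 4 of the labels, written here as arrays 1 to 4. The arrays form 1 group: early embryos labelled as strain PFR40, which carries the tm1489 allele of hpl-2, from hermaphrodite cultures with few males. The product of hpl-2 is a worm homolog of heterochromatin protein 1. The growth protocol names N2, the wild type, as the parent of the embryos, which conflicts with the genotype label and was not resolved here, and the wild-type arrays that the design sets beside them were not used. The comparison the study was designed for is therefore not made, and the values show which T-box genes were detected under the mutant label and how they varied from array to array. Whether the replicates are separate cultures is not stated in the labels, so the spread given may be technical, and the p-values measure that spread only.

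T-box factors bind DNA through a conserved domain and switch on or repress genes that fix the fate of cells. In the nematode embryo several of them act within single lineages, in the blastomeres that make pharynx, muscle and other mesoderm, and often in pairs of paralogs that can stand in for each other. Others act later, in the hindgut or in muscles made after hatching. In whole embryos, fewer cells of a type and less RNA per cell cannot be told apart.

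Of the 10 genes, 8 gave signal above the background of the arrays, 1 (mab-9) was not told apart from it and 1 (mls-1) lay below it. Chemoreceptor genes, which are used by sensory neurons, set the background: for each array it was the 95th percentile of their log2 signals (1326 genes), equal to signals of 272.9, 349.9, 309.1 and 356.8 on arrays 1 to 4. The log2 distance of a gene from that background was tested against 0 with limma, two-sided, with Benjamini-Hochberg adjustment over all transcripts. By the same rule, the share of transcripts above it was 55.0%, the share below was 36.2%, and 8.77% were not told apart. Over genes the share above was 51.9%. All 8 genes above background were above it on each of the 4 arrays. The median of the 10 genes was 4.59 above background on the log2 scale, against 0.48 over all named genes. Both medians describe these arrays, and probes of different genes differ in brightness, so no order of levels among the T-box genes is drawn.

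**Figure D1:**
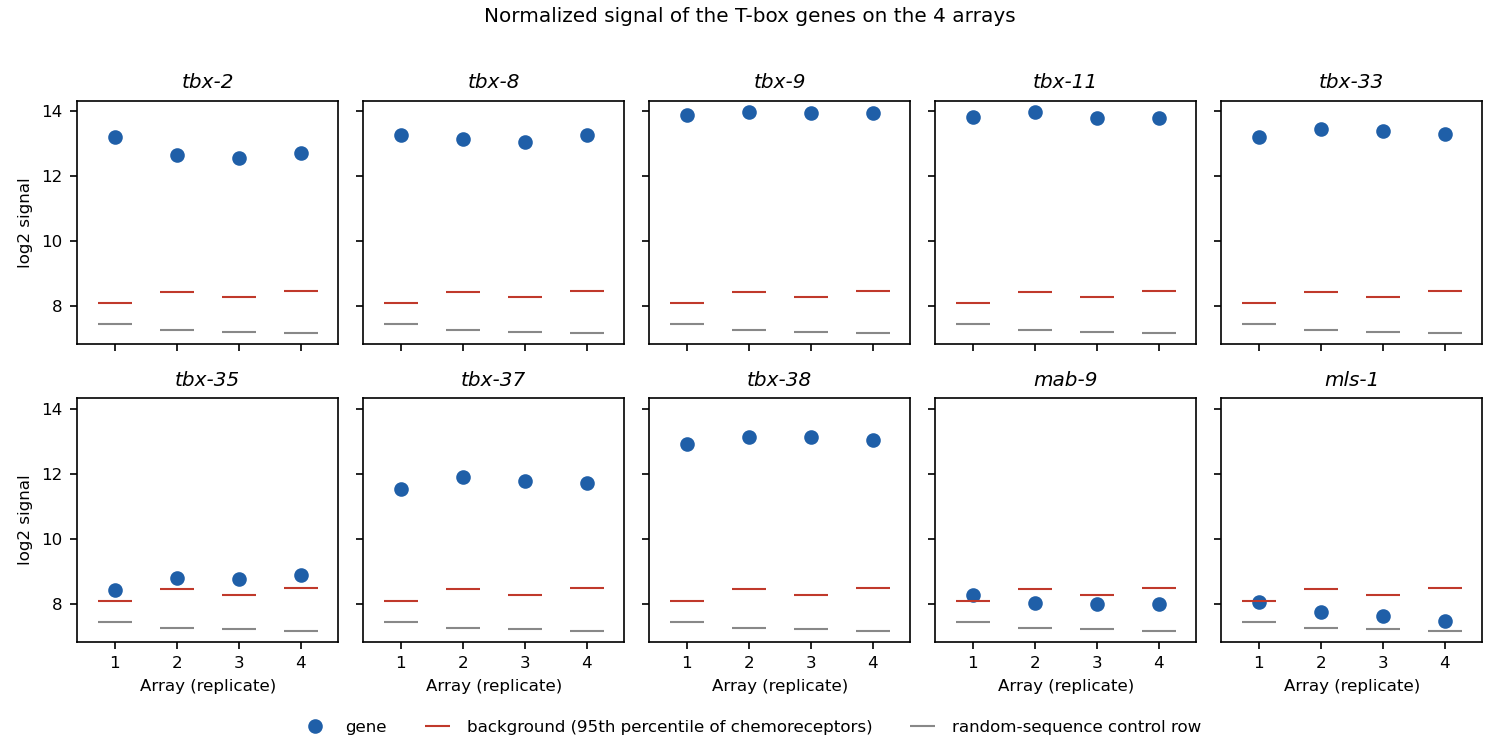
Log2 normalized signal (y axis) of each T-box gene on arrays 1 to 4 (x axis), 1 panel per gene; blue points are the gene, red dashes the background of that array and grey dashes its random-sequence control row. The points of 7 genes lie far above both lines, tbx-35 lies just above the red one, mab-9 is above it on array 1 alone, and mls-1 is below it on all 4 arrays.

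All 3 genes known for the early mesoderm lineages were above background, tbx-35 by a small margin, where 51.9% of all named genes were. The count of 3 genes was not tested against that share. The paralogs tbx-37 and tbx-38 act redundantly in descendants of the ABa blastomere, where they are needed for the pharynx that Notch signalling induces. The signal of tbx-37 (Y47D3A.12, chromosome III) was 2938, 3809, 3527 and 3388 on arrays 1 to 4. Array 1 was the lowest and array 2 the highest, a 1.30-fold range. It lay 3.41 ± 0.11 above background on the log2 scale (SD, n = 4; limma adjusted p = 1.91e-09).

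The signal of tbx-38 (C24H11.3, chromosome III) was 7686, 9023, 8871 and 8327 on arrays 1 to 4, again lowest on array 1 and highest on array 2. It lay 4.72 ± 0.14 above background on the log2 scale (SD, n = 4; limma adjusted p = 4.44e-10). As the genes are close paralogs, and no probe sequences were used here, signal shared between them cannot be split.

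The gene tbx-35 (ZK177.10, chromosome II) specifies the MS blastomere, a source of pharynx and muscle, as a direct target of the GATA-type factors MED-1 and MED-2. Its signals of 341, 444, 437 and 475 on arrays 1 to 4 were near those of the background. On each array it was a little higher than the background of that array, by 0.32, 0.34, 0.50 and 0.41 on the log2 scale. The mean was 0.39 ± 0.08 (SD, n = 4; limma adjusted p = 0.0021). With the 99th percentile of the chemoreceptors as background tbx-35 was called below instead, at -0.52, so the choice of background decides its call.

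The genes around tbx-35 in the MS pathway were measured on both sides. The maternal activator skn-1 exceeded background by 5.58 ± 0.13 on the log2 scale, and pop-1, the TCF factor that patterns MS and its sister, by 4.45 ± 0.49 (SD, n = 4). Upstream, med-1 and med-2 were not told apart from background, at -0.01 ± 0.08 and -0.11 ± 0.09. These genes are near-identical copies. The homeobox gene ceh-51, which tbx-35 activates, lay 3.66 ± 0.09 above background, with log2 signals of 11.72, 12.16, 12.03 and 12.03. In this list 3 of 5 genes were above background, near the 51.9% of all named genes, and none was called below.

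Notch signalling is known to keep tbx-37 and tbx-38 off in the descendants of ABp. Notch genes of the AB lineage were above background in 7 of 9 cases, with 2 below, against 51.9% of all named genes above. The receptor glp-1 stood 5.99 ± 0.13 log2 units over background, its ligand apx-1 4.24 ± 0.13 and the DNA-binding effector lag-1 5.27 ± 0.13 (SD, n = 4). Among the REF-1 family of Notch targets, ref-1 lay 4.64 ± 0.25 above and hlh-29 2.01 ± 0.10. The members hlh-25 and hlh-27 were called below, at -1.07 ± 0.25 and -0.88 ± 0.26.

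The gene tbx-2 (F21H11.3, chromosome III), of the Tbx2 subfamily, is required for the pharyngeal muscles that descend from ABa. Its signal was 9459 on array 1 and 6392, 6022 and 6724 on arrays 2 to 4. Array 1 stood above the others, which lay close together. The 1.57-fold range was the widest among the 8 genes above background. The gene lay 4.46 ± 0.44 above background on the log2 scale (SD, n = 4; limma adjusted p = 1.94e-08). The SD of its log2 signal was 0.29 over the 4 arrays and 0.08 without array 1.

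Genes of the pharynx list were above background in 4 of 6 cases, with 2 below, where 51.9% of all named genes were above. The organ selector pha-4 had log2 signals of 13.62, 13.15, 13.01 and 13.16 on arrays 1 to 4, highest on array 1 as tbx-2 was. The transcription factor genes ceh-22 and peb-1 spanned 2.93-fold and 4.44-fold ranges, and both were also highest on array 1. The remaining gene of the list above background, pha-1, was lowest on array 1, with a deviation of -0.24. The muscle genes of the finished pharynx were below background, with myo-2 at -0.36 ± 0.24 and tnc-2 at -0.70 ± 0.41 on the log2 scale (SD, n = 4). The corepressor unc-37, a Groucho homolog, and the SUMO pathway genes ubc-9, smo-1 and gei-17 encode known partners of T-box factors. They were above background in 4 of 4 cases, against the same 51.9%. The log2 signals of unc-37 were 14.79, 14.74, 14.69 and 14.70 on arrays 1 to 4, and the SUMO genes lay 5.03, 6.06 and 5.28 above background, in the order named. The fold ranges of the 4 genes over the arrays were 1.03 to 1.12.

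The paralogs tbx-8 and tbx-9 act redundantly in the arrangement of epidermis and body wall muscle during morphogenesis, and are direct neighbours on chromosome III among protein-coding genes. The signal of tbx-8 (T07C4.2) was 9933, 9007, 8495 and 9812 on arrays 1 to 4, highest on array 1 and lowest on array 3. That of tbx-9 (T07C4.6) was 15066, 15999, 15879 and 15710, the narrowest range of the 10 genes at 1.06-fold and lowest on array 1. In log2 units tbx-8 lay 4.86 ± 0.22 above background and tbx-9 5.61 ± 0.15 (SD, n = 4; limma adjusted p = 7.70e-10 and 3.97e-10). As for tbx-37 and tbx-38, signal shared between these paralogs cannot be split without probe sequences.

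Genes of muscle and epidermis fate and posterior patterning, the setting in which tbx-8 and tbx-9 work, were above background in 9 of 9 cases. Of all named genes 51.9% were above background. The myogenic factor hlh-1 lay 4.68 ± 0.29 above it on the log2 scale, the epidermal GATA factor elt-1 5.84 ± 0.23 and the caudal homolog pal-1 5.53 ± 0.14 (SD, n = 4). The even-skipped homolog vab-7, which patterns the posterior, lay 1.42 ± 0.12 above it. Its log2 signals of 9.65, 9.93, 9.62 and 9.78 lay within a 1.23-fold range.

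For tbx-11 and tbx-33 the signal was high on every array. The signal of tbx-11 (F40H6.4, chromosome III) was 14561, 16073, 14240 and 14125 on arrays 1 to 4, with array 2 apart from the other arrays. It lay 5.52 ± 0.18 above background on the log2 scale (SD, n = 4; limma adjusted p = 3.98e-10). The signal of tbx-33 (Y66A7A.8, chromosome III) was 9422, 11110, 10766 and 10015, lowest on array 1 and highest on array 2, as for tbx-37 and tbx-38. It lay 5.01 ± 0.15 above background (SD, n = 4; limma adjusted p = 4.03e-10).

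The remaining genes are known for later roles. The gene mab-9 (T27A1.6, chromosome II), a Tbx20 homolog, acts in the hindgut and the male tail. Its signal was 306 on array 1 and 259, 254 and 254 on arrays 2 to 4. Only array 1 was above its own background, by 0.17 on the log2 scale, and the mean of -0.26 ± 0.30 (SD, n = 4) was not told apart from 0 (limma adjusted p = 0.0744, 95% interval -0.55 to 0.03). Without array 1 the gene was called below background, at -0.40. It was also called below with 1 background shared by all arrays, with an unchanged mean of -0.26.

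The gene mls-1 (H14A12.4, chromosome III), a Tbx1 homolog, specifies uterine muscle after hatching. Its signals of 266, 214, 195 and 176 on arrays 1 to 4 were each below the background of the array. It lay at -0.61 ± 0.41 on the log2 scale (SD, n = 4; limma adjusted p = 0.00527), and the 1.51-fold range over arrays was nearly as wide as that of tbx-2. With the 75th percentile of the chemoreceptors as background mab-9 was called above, at 0.58, and mls-1 was not told apart, at 0.23. Below the background a difference between arrays cannot be read as a difference in the RNA of the gene.

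Each table also held 1 row named as a random-sequence control, with signals of 174.3, 153.8, 147.7 and 144.3 on arrays 1 to 4. This row is lower than the chemoreceptor background on every array. Against it, as an alternative chosen after the data were seen, mab-9 lay 0.79 and mls-1 0.44 above on the log2 scale (limma adjusted p = 1.29e-05 and 0.00145). By that rule 10 of 10 T-box genes were above, where 79.1% of the transcripts were as well. The number of probes behind the row was not known here.

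The hindgut list, where mab-9 acts, had 4 of 6 genes above background, 1 below and 1 not told apart, against 51.9% of all named genes above. The Sox factor sox-2 stood 4.51 ± 0.42 log2 units over background and the homeobox gene ceh-6 2.68 ± 0.48 (SD, n = 4). The Pax factor egl-38 was not told apart at -0.29 ± 0.36, and lin-48 was below at -0.33 ± 0.19. Of the 6 genes 5 were highest on array 1, among them egl-38, which was not above background. All 4 genes above background were highest there, against 30.2% of the transcripts above background, though egl-27 deviated by only 0.05.

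**Figure D2:**
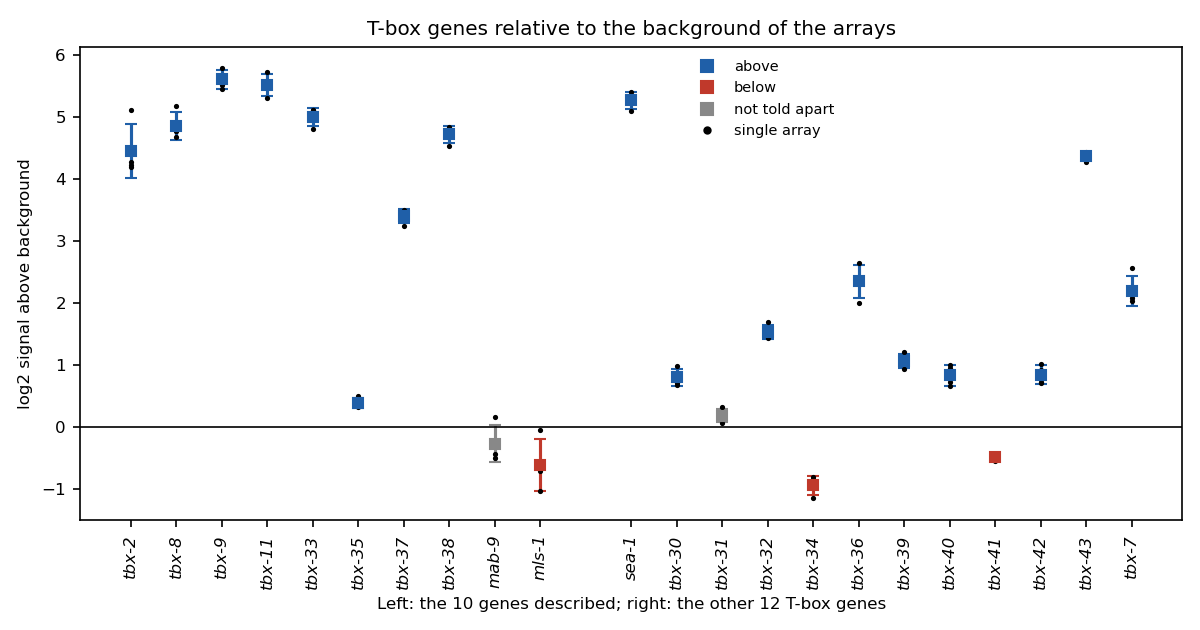
Log2 signal above the array background (y axis) for the 10 T-box genes described and the other 12 (x axis); squares are means with SD over the 4 arrays, coloured by the limma call, and dots are single arrays. Most of the 10 genes lie between 3 and 6, while most of the other 12 lie below 3, with sea-1 at 5.28 and tbx-43 at 4.38 as exceptions.

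Of the other 12 T-box genes 9 were above background, 2 below and 1 not told apart, where 51.9% of all named genes were above. Their median was 0.96 above background on the log2 scale. The dosage-counting gene sea-1, an autosomal signal in sex determination, stood 5.28 ± 0.13 log2 units over background and tbx-43 4.38 ± 0.07 (SD, n = 4). Values nearer to background were 0.80 ± 0.14 for tbx-30, 0.85 ± 0.15 for tbx-42, 1.07 ± 0.11 for tbx-39 and 0.84 ± 0.17 for tbx-40. Against the 99th percentile of the chemoreceptors, tbx-30, tbx-40 and tbx-42 were lower on arrays 1 and 4, higher on array 2 and split on array 3. Their calls, and so the count of 9, rest on the background chosen. The gene tbx-34, which by its identifier Y47D3A.10 comes from the same clone as tbx-37, was below at -0.94 ± 0.16. The X-linked tbx-31 was not told apart at 0.19 ± 0.11, and tbx-41, also X-linked, was below at -0.48 ± 0.04. No test of the 10 genes against the other 12 was made.

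Of the 10 genes 8 lie on chromosome III and 2 on chromosome II in RefSeq assembly WBcel235. On chromosome III, 5 lie in the right outer part of the gene span divided in 3 and 3 in the middle part. The assembly was used for gene order only, as no source used here gives the build of the arrays. Apart from tbx-8 and tbx-9 themselves, the direct protein-coding neighbours were 18 genes, of which 9 were above background, 6 below and 3 not told apart. That share is near the 51.9% of all named genes. These counts include the neighbours srd-74 (below) and srh-105 (not told apart). Both are chemoreceptor genes, which set the background, so their own calls are not a result. Some T-box genes with signal had neighbours below background. The neighbours of tbx-33, Y66A7A.7 and the gene faah-6, lay at -0.46 ± 0.35 and -0.47 ± 0.11 on the log2 scale and were both called below. Beside tbx-38, the neighbour that is not a chemoreceptor gene, C24H11.1, was above background, at 1.34 ± 0.18 (SD, n = 4). Beside tbx-35, ZK177.11 lay at -0.93 ± 0.18 and ZK177.1 at 4.26 ± 0.12.

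The median SD of the log2 signal over the arrays was 0.119 for the 10 T-box genes and 0.115 for all 23180 transcripts. It was 0.107 for the 8 T-box genes above background and 0.114 for the 12756 transcripts above background. Among the 8 genes above background 5 spanned less than a 1.2-fold range. The widest of these was tbx-33 at 1.18-fold, and 52.5% of the transcripts above background had a larger SD than it. Ranges this small were thus common, and the share of all those transcripts under 1.2-fold was not counted. A larger SD than that of tbx-2 was found in 15.6% of the transcripts above background, and a larger SD than that of tbx-9 in 90.2%. Of the 8 genes 5 (tbx-9, tbx-33, tbx-35, tbx-37 and tbx-38) were lowest on array 1, as were 51.4% of the transcripts above background, so this count is near the background. The highest value fell on array 1 for 2 of the 8 (tbx-2 and tbx-8), against 30.2% of those transcripts. It fell on array 2 for 5 of them, against 28.5%. Of the other 9 T-box genes above background, 8 were lowest on array 1, tbx-7 being the exception.

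**Figure D3:**
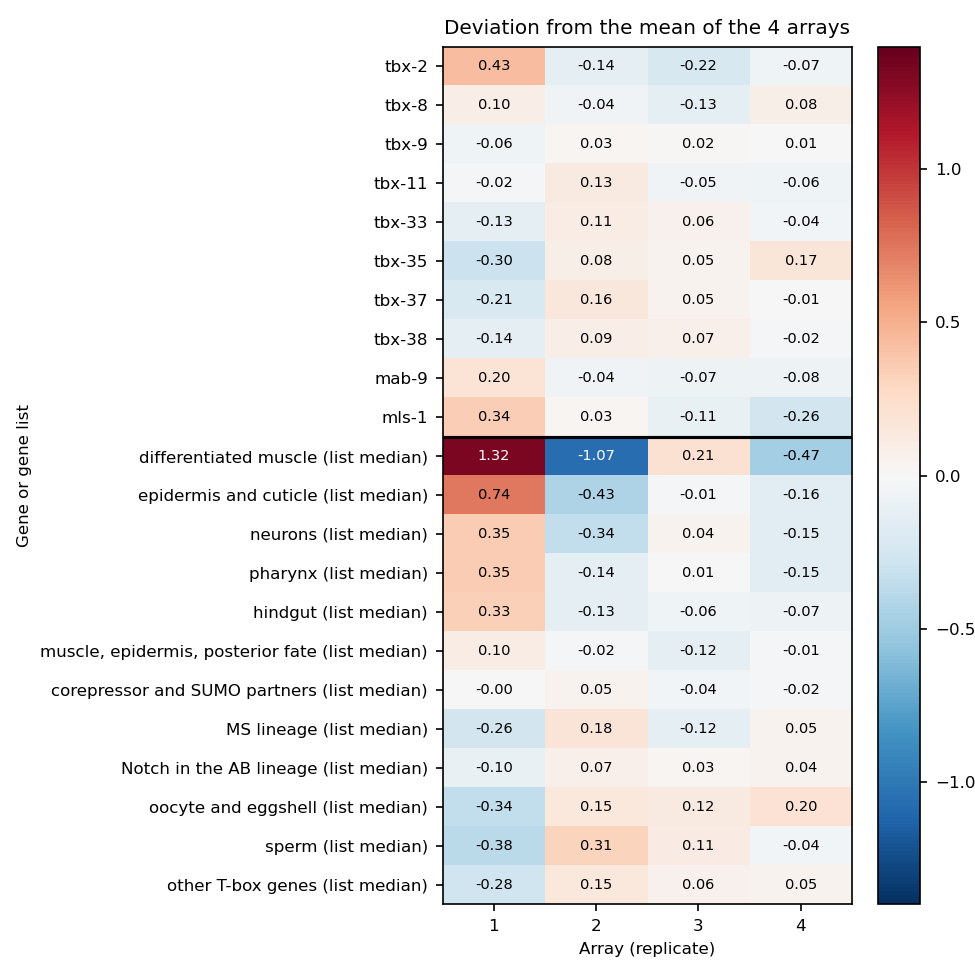
Log2 deviation of the signal from the mean of the 4 arrays (colour and printed value) for each T-box gene and for the median of each gene list (rows) on arrays 1 to 4 (columns). On array 1, tbx-2 and the medians of the muscle, cuticle, neuron, pharynx and hindgut lists are high. On the same array tbx-35, tbx-37, tbx-38 and tbx-33 and the medians of the MS, Notch, oocyte, sperm and other T-box lists are low. The rows of mab-9 and mls-1 are signals not above background, and that of tbx-35 is a signal just above it.

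Markers of differentiated tissue were high on array 1, where tbx-2 was. There tbx-2 deviated by 0.43 from its mean on the log2 scale. The signals of mls-1 and mab-9 were also highest on array 1, by deviations of 0.34 and 0.20, but neither gene was above background. The random-sequence control row was highest on array 1 too, while the chemoreceptor background was lowest there. On the same array the median of the 7 differentiated muscle genes deviated by 1.32, that of the 5 epidermis and cuticle genes by 0.74 and that of the 4 neuron genes by 0.35. All 7 muscle genes and all 5 cuticle genes were highest on array 1, as were 3 of the 4 neuron genes. Above background were 6, 4 and 2 genes of these lists, with median deviations of 1.34, 0.77 and 0.53. All of those were highest on array 1, against 30.2% of the transcripts above background. The 2 neuron genes were unlike, with deviations of 0.11 for unc-119 and 0.95 for unc-86, so their median stands for neither. The neuron genes rab-3 and snt-1 were not above background. The summed signal of the muscle genes ranged from 6145 on array 2 to 31522 on array 1. That of the cuticle genes ranged from 32250 to 66729 on the same arrays, and that of the neuron genes from 7340 to 12464. The part of these markers in the T-box values was not tested.

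Other T-box genes were low on array 1. The deviations there were -0.21 for tbx-37, -0.14 for tbx-38 and -0.13 for tbx-33, and the signal of tbx-35 was 1.39-fold lower on array 1 than on array 4. The background was lower on array 1 as well, at 272.9 against 356.8 on array 4. Relative to it tbx-35 lay at 0.32 and 0.41 on the log2 scale, so little of its range is apart from the background. The median of the 7 oocyte and eggshell genes deviated by -0.34 on array 1, or by -0.80 over the 5 above background, and that of the 5 sperm genes by -0.38. The summed signal of the oocyte and eggshell genes ranged from 35660 on array 1 to 61582 on array 4, and that of the sperm genes from 3074 on array 1 to 5953 on array 2. The 6 vitellogenin genes, markers of the adult intestine, were called below background in 6 of 6 cases, and their summed signal ranged from 1380 to 1448. The median of the 5 MS genes deviated by -0.26 on array 1 and that of the 9 Notch genes by -0.10. Over the genes above background alone these medians were -0.11 and -0.21, and pop-1 went the other way, with 0.43. The median of all named genes deviated by -0.04, and by -0.06 over those above background. The part of these markers was not tested either, and with 1 group there is no contrast between arrays to test.

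**Figure D4:**
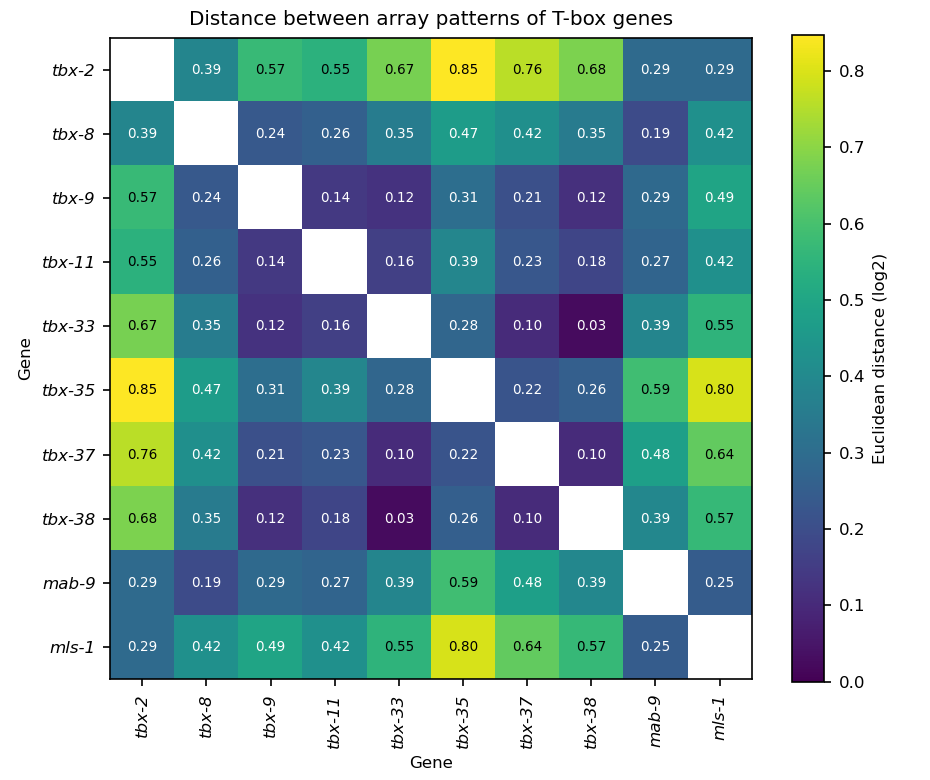
Euclidean distance between the array patterns (log2 deviations over 4 arrays) of each pair of T-box genes, printed in each cell and coloured from 0 (dark) upward. The cell of tbx-33 and tbx-38 holds 0.03 and those of tbx-37 with either of them 0.10, while tbx-2 and tbx-35 are 0.85 apart.

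Likeness of pattern was measured as the Euclidean distance between the log2 deviations of a pair of genes over the 4 arrays, so it leaves levels out. Over the 45 pairs of the 10 genes the median distance was 0.35. The smallest was 0.03 between tbx-33 and tbx-38, whose deviations on arrays 1 to 4 were -0.13, 0.11, 0.06 and -0.04 against -0.14, 0.09, 0.07 and -0.02. Of the other 10051 genes above background, 4 were nearer to tbx-33 than tbx-38 was, and 7 were nearer to tbx-38 than tbx-33 was. The paralogs tbx-37 and tbx-38 were 0.10 apart, with 290 genes nearer to tbx-37 and 869 nearer to tbx-38. The neighbours and paralogs tbx-8 and tbx-9 were 0.24 apart, with 33.7% of the genes above background nearer to tbx-8 and 59.9% nearer to tbx-9. Any signal shared within either pair of paralogs would enter these distances and was not checked. The largest distance was 0.85, between tbx-2 and tbx-35. With 4 arrays, small deviations alone bring patterns near each other, and no correlation is given.

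None of the 10 genes spanned as much as 1 on the log2 scale, so the nearest genes are named for tbx-2 and mls-1, which had the largest SDs. For tbx-2 they were ncam-1, T02E9.5 and wrt-10, at distances of 0.01, 0.03 and 0.03. The signal of the nearest, ncam-1, was 9185, 6165, 5834 and 6544 on arrays 1 to 4, high on array 1 alone as for tbx-2. For mls-1 they were cth-2, set-27 and shc-2, at distances of 0.07, 0.09 and 0.09. The signal of cth-2 was 3457, 2777, 2522 and 2153 on the same arrays. Only genes above background were searched, so that cth-2 is above background, unlike mls-1, was set by the search. The pattern of mls-1 is that of a signal below background, and the control row was also highest on array 1 and lowest on array 4. The chemoreceptor background ran the other way, lowest on array 1 at 272.9 and highest on array 4 at 356.8. The part of background in this likeness was not tested.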

How the data were processed

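The authors deposited 1 linear intensity per transcript and array, which was quantile normalized and averaged, per the file headers and names. Labelling with Cy3 was done by NimbleGen, per the labels' protocols; scanner, background correction, probes per transcript and genome build: not given in the sources used here. Quantile normalization hides a shift shared by most transcripts. The lower quartile, median and upper quartile of the arrays were 194.0 to 197.0, 576.0 to 591.3 and 5748 to 5805. The series table was identical to the single tables (largest difference 0).

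Of 23181 rows, 1 control row was left out. Identifiers were matched to RefSeq (WBcel235), 17151 as written and 5352 without the isoform letter, with 677 unmatched. A gene took its transcript with the highest mean. Values below 1 would be raised to 1 before log2. Log2 signal minus the array background (chemoreceptors by the symbols of 21 families) was fitted with limma 3.58.1 in R 4.3.3 (lmFit and eBayes, intercept only, 4 arrays) at an adjusted p of 0.05. Differences in background between arrays enter every SD, and an error of the background shared by arrays does not. The fit was tested on simulated data. Precision is limited by having 4 arrays.

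The members and lists were chosen with earlier results of these data known. Named genes were every T-box gene, members of the lists, direct neighbours, and the 3 genes nearest in pattern, searched among genes above background. Nearest genes were sought for T-box genes spanning at least 1 on the log2 scale, or else for the pair with the largest SD. Alternatives were other backgrounds, an offset of 50, a filter on low signal and each array left out. Protein and promoter sequences were not used here.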

Additional observations from a re-analysis of the deposited data

Results flagged for a closer look

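A test for 1 array far from the others (the gap to the nearest other array over the whole range of the log2 signals, set against Dixon's 95% critical value for 4 samples) was run on the 10 T-box genes and on the genes of the lists, 95 genes in all. Chance passes about 1 in 20 such groups, and 7 of the 95 passed.

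Among the 10 genes only mab-9 passed, with a ratio of 0.883 for array 1, where its signal was 306 against 254 to 259 on the others. The gene was not told apart from background, and the random-sequence control row was also highest on array 1, at 174.3 against 144.3 to 153.8. The chemoreceptor background was instead lowest on that array, at 272.9 against 309.1 to 356.8. Of the other T-box genes, tbx-32 passed at 0.83, tbx-36 at 0.884 and tbx-39 at 0.875, each because array 1 was low. The log2 signals of tbx-36 were 10.10, 10.83, 10.93 and 10.85 on arrays 1 to 4. The epidermal GATA gene elt-3 passed at 0.87 with array 1 high, and the eggshell gene egg-3 passed at 0.87 with array 1 low. The hindgut gene lin-48 passed at 0.843 with array 2 high.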

How the results depend on the processing

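Over 11 alternatives, the count of T-box genes above background ran from 7 to 10 and was 8 with each array left out in turn, with the offset, with the low-signal filter and with a background shared by all arrays. It was 7 when the 99th percentile of the chemoreceptors set the background, where 46.9% of all transcripts were above it. It was 9 at their 75th percentile and at the 25th percentile of all transcripts, where 72.5% and 68.9% were. The calls of 7 genes (tbx-2, tbx-8, tbx-9, tbx-11, tbx-33, tbx-37 and tbx-38) were the same under all 11. The sign turned for tbx-35 with the 99th percentile (-0.52). It turned for mab-9 with the 75th percentile (0.58), the 25th percentile of all transcripts (0.45) and the control row (0.79), and for mls-1 with the same settings (0.23, 0.11 and 0.44). With the arrays left out in turn, tbx-35 ran from 0.36 to 0.42, mab-9 from -0.40 to -0.18 and mls-1 from -0.80 to -0.47. The last alternatives, the control row and the shared background, were chosen after seeing the data. Without array 1 the SD of the log2 signal changed from 0.29 to 0.08 for tbx-2, 0.039 to 0.013 for tbx-9, 0.21 to 0.06 for tbx-35, 0.16 to 0.09 for tbx-37, 0.105 to 0.061 for tbx-38, 0.131 to 0.018 for mab-9 and 0.26 to 0.14 for mls-1. For tbx-11 it went from 0.086 to 0.023 without array 2. The distance between tbx-37 and tbx-38 ran from 0.06 to 0.10 with 1 array left out, and that between tbx-8 and tbx-9 from 0.16 to 0.22. Signal near the background limits what can be said of tbx-35, mab-9 and mls-1. No paired analysis was possible because the labels give 1 group.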
